A study of Mus musculus with 6 samples.

Results

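The cytosolic ribosomal protein genes encode the proteins of the large (Rpl) and small (Rps) subunits of the ribosome that translates nuclear mRNAs. They were examined in 4T1 cells, a mouse mammary carcinoma line labelled as triple-negative breast cancer, in 3 libraries from cells given the solvent DMSO and 3 libraries from cells given LP-184 for 48 h. LP-184 is a DNA-damaging prodrug. The line carries no engineered allele in the labels, and neither a dose nor a treatment time for the DMSO libraries is given there. Members were chosen by symbol: Rpl or Rps followed by a number, with the letters of named forms, plus Rpsa, Rplp0, Rplp1 and Rplp2, leaving out rows named as pseudogenes (-ps) and the Rps6k kinases. This gave 85 of the 12656 genes in the table, and all 85 passed the filter of 1 CPM (reads scaled to library size, at log2 CPM of 0) in at least 3 libraries that left 11931 genes for testing. Of the 85, 77 are core ribosomal proteins, 4 are paralog forms (Rpl7l1, Rpl22l1, Rpl36al and Rps27l), and 4 are single-exon copies annotated as processed pseudogenes (Rpl6l, Rpl32l, Rps3a2 and Rps3a3). Rpl3l, Rpl10l, Rpl39l and Rps4l were not analysed here.

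Each ribosome holds 1 copy of almost every one of these proteins, bound to ribosomal RNA, and cells keep their mRNAs at high and similar levels. Their genes are short and strongly transcribed, and many of their introns hold small nucleolar RNAs. Their mRNAs begin with a 5′ terminal oligopyrimidine tract (TOP), a C followed by a run of C and T letters in the DNA, through which mTORC1 and LARP1 control their translation. Unassembled RPL5 and RPL11 bind MDM2 together with 5S ribosomal RNA, which links ribosome assembly to p53.

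The table held 18864368 to 22471753 reads per library. The labels do not say whether replicates were separate cultures, so the p-values measure only the spread between these libraries. All 6 epithelial markers were detected in every library, the lowest value being 113 CPM. From DMSO to LP-184, Krt7 went from a mean of 1926 to 705 CPM, Krt18 from 1145 to 903 and Krt8 from 769.8 to 557, while Epcam went from 361 to 464, Cdh1 from 303 to 394 and Krt19 from 115 to 148. Ptprc, Cd3e, Pecam1, Cdh5, Col1a1 and Pgr had no row in the table. Esr1, the oestrogen receptor gene that triple-negative tumours lack, stood at a mean of 10.5 CPM with DMSO and 0.381 CPM with LP-184, so the DMSO libraries did not lack its mRNA. Erbb2, the HER2 gene, stood at 41.5 and 30.7 CPM. The macrophage and lysosome marker Cd68 stood at 10.2 CPM with DMSO and 31.3 CPM with LP-184, and Pdgfra at 6.85 and 9.19 CPM. The part of these markers' cells in the results below was not tested.

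The sequences around the transcription start are shown for members with a RefSeq entry (62 of 85 matched by symbol), namely the 3 largest rises and the 3 largest falls among called members whose groups did not overlap, and the 3 most abundant members per kb, because the tract that marks this mRNA class lies there. Each window holds 15 bases before and 15 from the RefSeq start of GRCm38.p6, 5′ to 3′ on the gene's strand. Capitals mark a C followed by at least 4 pyrimidines that begins within 5 bases of the start.
Rps10, chr17:27635230-27635259, minus strand: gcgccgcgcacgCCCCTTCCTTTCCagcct
Rpl24, chr16:55966260-55966289, plus strand: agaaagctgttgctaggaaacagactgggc
Rpl7l1, chr17:46782642-46782671, minus strand: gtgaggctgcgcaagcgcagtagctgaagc
Rpl22l1, chr3:28805493-28805522, plus strand: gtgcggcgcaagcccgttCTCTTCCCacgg
Rps15a, chr7:118116133-118116162, minus strand: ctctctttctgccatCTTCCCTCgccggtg
Rpl10a, chr17:28328456-28328485, plus strand: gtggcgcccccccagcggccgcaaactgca
Rpl41, chr10:128549154-128549183, minus strand: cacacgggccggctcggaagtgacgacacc
Rps12, chr10:23787195-23787224, minus strand: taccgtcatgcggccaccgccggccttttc
Rpsa, chr9:120127751-120127780, plus strand: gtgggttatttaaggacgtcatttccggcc

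A tract was found by this rule for Rps10, the member with the largest rise, and for Rpl22l1 and Rps15a, the members with the largest falls. The other 6 had none that begins that close to the RefSeq start used. In Rpl10a and Rps12 such letters lie in the window but farther from the start. Over the 57 core members with a RefSeq entry, 27 (47.4%) held a tract by this rule, against 23.9% of the 8854 tested genes with an entry and 21.2% of all 27025 genes with one. Members with a tract had a median log2 fold change of -0.19 and members without one of -0.15, a difference that was not tested.

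Other letters searched were on both strands of the window from 250 bases before to 50 after the start, where motifs may overlap. CCGGAAG, the core bound by ETS factors such as GABPA, was in 42.1% of the 57 core members and in 21.7% of tested genes (9.93% of all genes with an entry). ATGGCGG, bound by YY1, was in 15.8% against 10.1% (4.69% of all), and TATAAA, the TATA box, in 10.5% against 8.30% (15.7% of all). GGGCGG, bound by SP1, was in 61.4% against 71.2% (38.2% of all), and CCAAT in 31.6% against 43.7% (41.1% of all). Core members with CCGGAAG had a median log2 fold change of -0.20, and those without it of -0.15. The medians with and without the letters were -0.22 and -0.15 for ATGGCGG, -0.20 and -0.15 for CCAAT, -0.15 and -0.20 for GGGCGG, and -0.01 (6 genes) and -0.19 for TATAAA. None of these differences was tested.

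Ribosomal protein mRNAs took a slightly smaller share of the reads after LP-184. They made up 7.48%, 7.24% and 7.46% of reads in the DMSO libraries (in replicate order) and 6.76%, 6.94% and 6.95% in the LP-184 libraries. Every LP-184 library lay below every DMSO library. The mean was 7.39% ± 0.136 with DMSO and 6.89% ± 0.108 with LP-184 (SD, n = 3 each), which is 6.87% lower in relative terms. The large subunit with its stalk went from 4.32% ± 0.0757 to 4.09% ± 0.0658, and the small subunit from 3.07% ± 0.0607 to 2.80% ± 0.0422. Rows named -ps held 0.206% of reads with DMSO and 0.210% with LP-184, and the 80 mitochondrial ribosomal protein genes 0.674% and 0.728%. In bulk libraries less of these mRNAs per cell, fewer cells that hold them and more of other RNAs cannot be told apart.

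**Figure D1:**
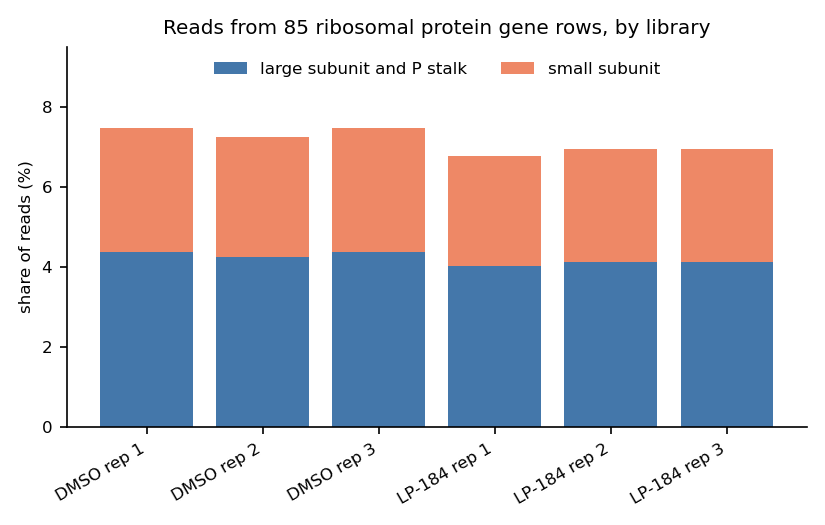
Share of reads (%, y axis) from the 85 ribosomal protein gene rows in each library (x axis), stacked as large subunit with P stalk and small subunit. The 3 DMSO bars end between 7.24% and 7.48% and the 3 LP-184 bars between 6.76% and 6.95%.

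Most members fell, by small amounts. With limma and Benjamini-Hochberg adjustment over 11931 genes (called at an adjusted p under 0.05), 61 of 85 members were lower and 12 higher with LP-184, and 12 were not called. Of all genes tested 40.0% were called lower and 38.3% higher, against 71.8% and 14.1% of the members. The members' median log2 fold change was -0.14 (9.53% lower), beside -0.01 for all genes tested, and their median standard error was 0.022. The libraries of the groups did not overlap for 55 lower and 11 higher members, beside 40.2% and 38.9% of all genes tested. The 8 called members whose libraries overlapped were Rpl36a, Rpl37, Rpl38, Rpl6, Rplp1, Rps29, Rps3a2 and Rpsa.

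The changes were small beside those of other genes. Only Rpl22l1 passed 2-fold, while 12.6% of all genes tested were called at 2-fold or more lower and 8.08% at 2-fold or more higher. At 1.25-fold or more, 11 members were lower and 3 higher, together 16.5% of the members, beside 31.3% and 29.2% of all genes tested. The interquartile range of the members' log2 fold changes ran from -0.25 to -0.03, and that of all genes tested from -0.51 to 0.44. Most members are abundant, and other abundant genes also changed less than all genes tested. Of 687 other genes with a mean log2 CPM of 8 or more, 26 were called at 2-fold or more and 48.0% at 1.25-fold or more. Their interquartile range ran from -0.31 to 0.29. A member that was not called here may still have changed.

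The split between higher and lower calls moved with the scaling. After centring each library on the median of all genes tested, 19 members were higher and 41 lower (31.7% of calls higher, against 16.4% on the authors' scaling), beside 43.5% and 35.4% of all genes. After quantile normalization 20 were higher and 49 lower (29.0% of calls higher), beside 42.9% and 36.6% of all genes. Median centring adds 0.087 to the log2 fold change of every gene. It therefore cannot change the gap between the members' median and that of all genes (-0.06 beside 0.08). Quantile normalization can change this gap, and there the members' median lay below that of all genes, at -0.10 beside 0.07.

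**Figure D2:**
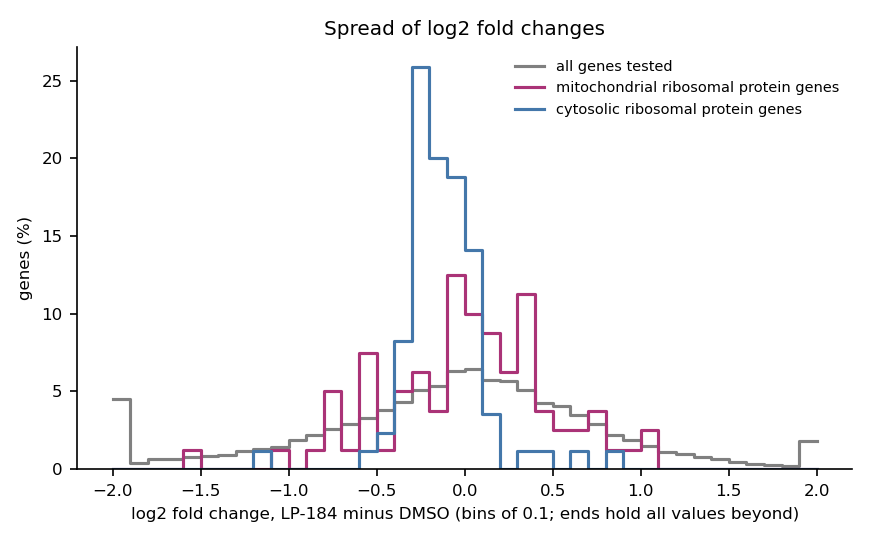
Share of genes (%, y axis) by log2 fold change of LP-184 minus DMSO (x axis, bins of 0.1) for all 11931 genes tested, the 80 mitochondrial and the 85 cytosolic ribosomal protein genes. The cytosolic genes form a narrow peak just below 0, with an interquartile range of -0.25 to -0.03, and the mitochondrial genes spread from -1.55 to 1.07.

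By subunit, the median was lower for the small subunit than for the large. Of 31 small subunit core genes 23 fell and 4 rose, with a median log2 fold change of -0.21. Of 43 large subunit core genes, the stalk left out, 34 fell and 5 rose, with a median of -0.14. The difference between the subunits was not tested, and both medians stayed negative with median centring (-0.12 and -0.05) and with quantile normalization (-0.13 and -0.09).

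**Figure D3:**
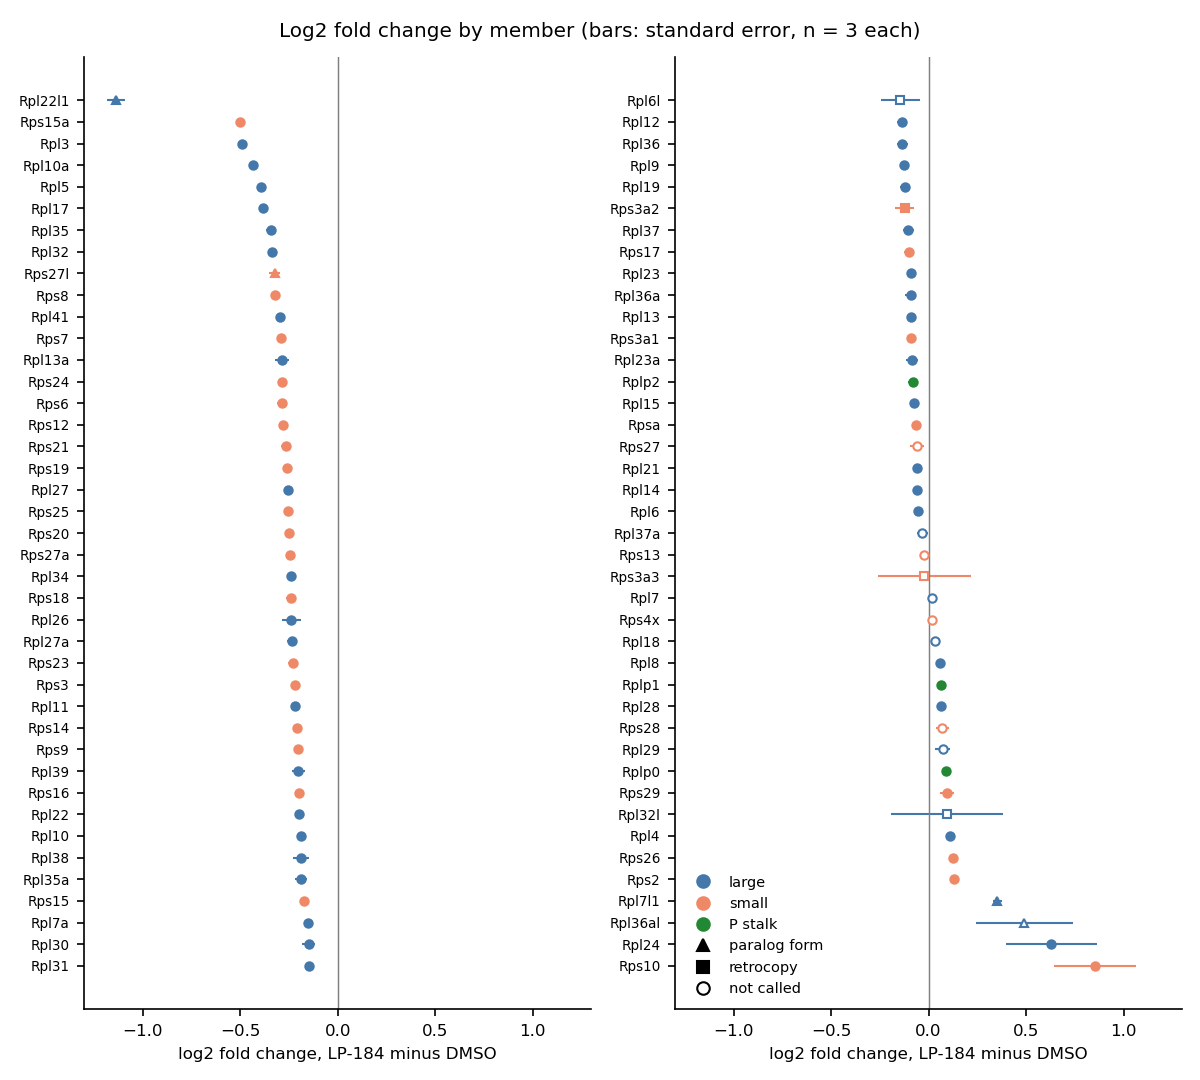
Log2 fold change of LP-184 minus DMSO (x axis) for 82 of the 85 members (y axis, ordered), with bars for the standard error of the limma fit (n = 3 each). Colours give the subunit, shapes the form, and open symbols the 12 members not called. Rpl22l1 at -1.14 and Rps10 at 0.85 are the ends of the range.

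Rpl22l1 had the largest fall of all members. It encodes a paralog of RPL22, a large subunit protein that bulk translation can do without, and the gene lies at chr3:28805436-28807424 (GRCm38, plus strand, 4 exons). Its level was 84.5, 83.1 and 83.1 CPM in the DMSO libraries and 38.3, 37.8 and 37.7 CPM in the LP-184 libraries. All 3 LP-184 libraries lay at less than 50% of any DMSO library. The log2 fold change was -1.14 (SE 0.047, limma adjusted p = 1.24e-21). Its partner Rpl22 fell from 556 ± 10.1 to 485 ± 8.20 CPM (SD, n = 3 each), which is -0.20 on the log2 scale (limma adjusted p = 5.36e-10). An antisense gene, Gm33051, overlaps 28.8% of the Rpl22l1 mRNA, and whether counting used the strand was not stated.

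Rps15a, a small subunit protein gene at chr7:118104372-118116188 (minus strand), came next. It stood at 608, 569 and 590 CPM with DMSO and at 405, 425 and 418 CPM with LP-184, so the groups lay far apart. Its log2 fold change was -0.50 (SE 0.024, limma adjusted p = 1.13e-19), or 29.3% lower. Rpl3 encodes a large subunit protein that reaches towards the peptidyl transferase centre and lies at chr15:80077791-80091868 (minus strand, 10 exons, 2 snoRNA genes inside). It stood at 1335, 1299 and 1330 CPM with DMSO and 930, 948 and 938 CPM with LP-184. The spread within each group was a small part of this gap, and the log2 fold change was -0.49 (SE 0.018, limma adjusted p = 3.17e-23).

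Rpl10a, a protein of the ribosome's L1 stalk, stood at 881, 867 and 890 CPM with DMSO and 637, 652 and 665 CPM with LP-184. The groups did not overlap, and the log2 fold change was -0.43. Rpl17 and Rpl35 were also among the largest falls. Both belong to the rim of the peptide exit tunnel. Their log2 fold changes were -0.39 for Rpl17 and -0.34 for Rpl35, each with non-overlapping groups and each kept as a lower call after median centring. Exons of Arpc5l and Wdr38 on the other strand cover 68.3% of the Rpl35 mRNA.

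Rpl5 and Rpl11, the partners of 5S ribosomal RNA, both fell. Rpl5 (chr5:107900502-107909005, plus strand) stood at 1939, 1857 and 1925 CPM with DMSO and 1399, 1483 and 1481 CPM with LP-184. Rpl11 (chr4:136028265-136053428, minus strand) stood at 884, 834 and 859 CPM with DMSO and 722, 746 and 742 CPM with LP-184. Neither gene's groups overlapped, and the log2 fold changes were -0.39 for Rpl5 and -0.22 for Rpl11. Exons of Fam69a on the other strand cover 46.6% of the Rpl5 mRNA. Rps6, the S6 kinase substrate of the small subunit, fell from 976 ± 32.6 to 800 ± 33.2 CPM (log2 fold change -0.29). Rps27a, made as a fusion with ubiquitin, fell from 1143 ± 39.7 to 963 ± 22.7 CPM (log2 fold change -0.25).

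The P stalk proteins, which recruit elongation factors to the large subunit, did not move together. Rplp0, the stalk base at chr5:115559467-115563727, stood at 2678, 2659 and 2794 CPM with DMSO and 2825, 2872 and 2963 CPM with LP-184. All LP-184 libraries were above all DMSO libraries by a small margin, and the log2 fold change was 0.09 (SE 0.018, limma adjusted p = 1.86e-05, and 0.073 for Rplp0 in a fit without the variance trend). Rplp1 was also called higher, at 0.06, with overlapping groups (1317 to 1419 CPM and 1409 to 1459 CPM). Without DMSO replicate 2 the Rplp1 call was lost (0.03, limma adjusted p = 0.12). Rplp2 was called lower, at -0.08, a call that was lost after median centring, where its value was 0.0048.

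Rpl7l1, a paralog of RPL7 that takes part in ribosome assembly, had the largest rise among members with more than a few CPM. It lies at chr17:46773907-46782672 (minus strand, 6 exons) and stood at 323, 321 and 329 CPM with DMSO and 421, 412 and 410 CPM with LP-184. The groups lay well apart, at a log2 difference of 0.35 (SE 0.024, limma adjusted p = 1.04e-15). Rpl7 itself was not called, at 1911 ± 31.4 and 1932 ± 44.9 CPM (limma adjusted p = 0.40), and was called higher after median centring, at 0.10. The paralogs' difference in response was not tested.

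Rps2, a small subunit protein near the mRNA entry, stood at 868, 848 and 876 CPM with DMSO and 945, 942 and 953 CPM with LP-184. The LP-184 libraries were higher by more than the spread within groups, with a log2 fold change of 0.13. Rows named as Rps2 pseudogenes held 13433, 16237 and 14854 reads with DMSO and 18731, 16806 and 15914 with LP-184. The Rps2 row held 16181, 18193 and 16371 reads with DMSO and 21570, 19666 and 18188 with LP-184, so its level is uncertain. With the pseudogene reads added, Rps2 kept its higher call. Rps26, a protein of the mRNA exit channel, stood at 644, 608 and 617 CPM with DMSO and 657, 687 and 697 CPM with LP-184. The groups were close but did not overlap, and the log2 fold change was also 0.13. Rpl4, which lines the exit tunnel and holds 5 snoRNA genes, rose from 1797 ± 35.6 to 1942 ± 22.3 CPM (log2 fold change 0.11). Rpl4, Rpl7l1, Rps2 and Rps26 were the only members to keep a higher call in every alternative fit that tested them (19 alternatives). Other higher calls were Rplp0 and Rplp1 as above, Rpl8 (0.06), Rpl28 (0.06), Rps29 (0.09, overlapping groups), Rps10 and Rpl24. The calls of Rpl8, Rpl28 and Rps29 were lost in the fit without the variance trend. That of Rps29 was also lost without DMSO replicate 2, DMSO replicate 3 or LP-184 replicate 2, at 0.05, 0.07 and 0.07, and that of Rpl28 without LP-184 replicate 2, at 0.05.

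Rps10 and Rpl24 had the largest fold rises, from very few reads. Rps10 was counted at 44, 44 and 39 reads in the DMSO libraries and 113, 74 and 69 in the LP-184 libraries, or 2.17 ± 0.169 and 4.04 ± 0.792 CPM. Its log2 fold change was 0.85 (SE 0.21, limma adjusted p = 4.35e-04). Rows named as Rps10 pseudogenes held 1114, 1331 and 1157 reads with DMSO and 1205, 1306 and 1017 with LP-184, far more than the gene itself. With these reads added to Rps10, an alternative added once the values were known, its log2 fold change was -0.076. RPS10-NUDT3, an annotated read-through gene, shares 91.6% of the Rps10 mRNA on the same strand.

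Rpl24 was counted at 31, 42 and 29 reads with DMSO and 56, 61 and 53 with LP-184, with non-overlapping groups and a log2 difference of 0.63 (SE 0.24, limma adjusted p = 0.015). The call for Rpl24 was lost without LP-184 replicate 2 (0.58, limma adjusted p = 0.055). Gm28037 shares 71.5% of its mRNA on the same strand. Rpl36al, with 1.71 to 1.91 CPM in DMSO and 1.89 to 3.4 CPM in LP-184, was not called (limma adjusted p = 0.070, and 0.017 without LP-184 replicate 3), and Gm49383 shares 63.1% of its mRNA. Rpl13a is the only other member with over 50% of its mRNA shared on the same strand (Gm45713, 59.3%); it fell from 126 ± 2.32 to 103 ± 4.55 CPM. Of the 77 core members, 75 lay above a mean log2 CPM of 5 with DMSO, and the other two were Rps10 and Rpl24. Reads that fit 2 genes can be dropped or split in counting, and how the authors treated them was not stated. Whether this sets the levels of these genes was not tested. Without the core genes that share over 50% of their mRNA, 57 of 74 fell and 9 rose, with a median of -0.15.

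**Figure D4:**
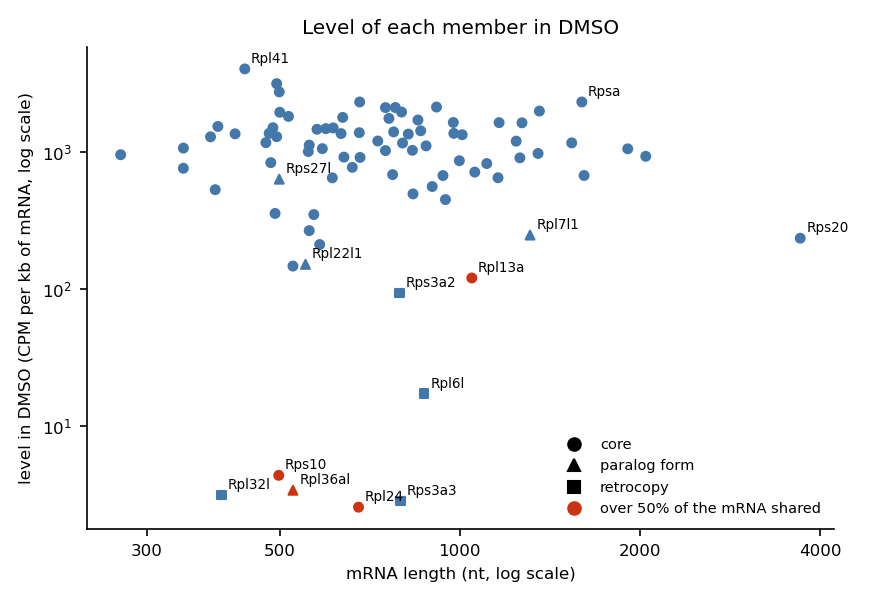
Level with DMSO (CPM per kb of mRNA, y axis, log scale) against mRNA length (nt, x axis, log scale) for the 85 members, with shapes for core genes, paralog forms and retrocopies. Red marks the 4 members with over 50% of their mRNA shared with another gene on the same strand, of which Rps10, Rpl24 and Rpl36al lie near the retrocopies Rpl32l and Rps3a3 at the bottom.

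Per kb of mRNA, Rpl41, which encodes the smallest ribosomal protein, had the highest level, at 4056 CPM per kb with DMSO and 3307 with LP-184. Rps12 followed at 3165 and 2607 CPM per kb, Rplp1 at 2755 and 2878, Rpsa at 2326 and 2223, Rpl9 at 2325 and 2131, and Rpl7a at 2136 and 1923. Rpl41 and Rps12 fell clearly, with log2 fold changes of -0.29 and -0.28. Rpsa, the laminin receptor precursor of the small subunit, stood at 3700, 3642 and 3814 CPM with DMSO and 3534, 3482 and 3647 CPM with LP-184. Its groups overlapped, and its lower call (log2 fold change -0.07) was lost after median centring, at 0.02. The lowest levels were those of Rpl24 (2.55 CPM per kb with DMSO), Rps3a3 (2.82) and Rpl32l (3.12).

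Among the other paralogs, Rps27l, a p53-inducible form of Rps27, fell from 316 ± 12.8 to 253 ± 7.96 CPM (log2 fold change -0.32, limma adjusted p = 2.20e-12). Rps27 was not called, at 369 ± 29.0 and 354 ± 19.5 CPM, but was called lower without DMSO replicate 2 (-0.11) or LP-184 replicate 2 (-0.10). Rpl36a, the partner of Rpl36al, was called lower at -0.09 with overlapping groups, a call lost for Rpl36a without DMSO replicate 1 or LP-184 replicate 1 (-0.06 each). Rpl10 and Rpl39 were lower at -0.19 and -0.20, and Rps4x was not called, at 0.02, though it was called higher after median centring, at 0.11. The retrocopies gave few calls: Rps3a2 was lower (log2 fold change -0.12, overlapping groups), a call lost without DMSO replicate 1 (-0.07) or LP-184 replicate 1 (-0.09), and Rpl6l, Rpl32l and Rps3a3 were not called. Reads of a retrocopy and its parent can be confused, so these values are uncertain.

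**Figure D5:**
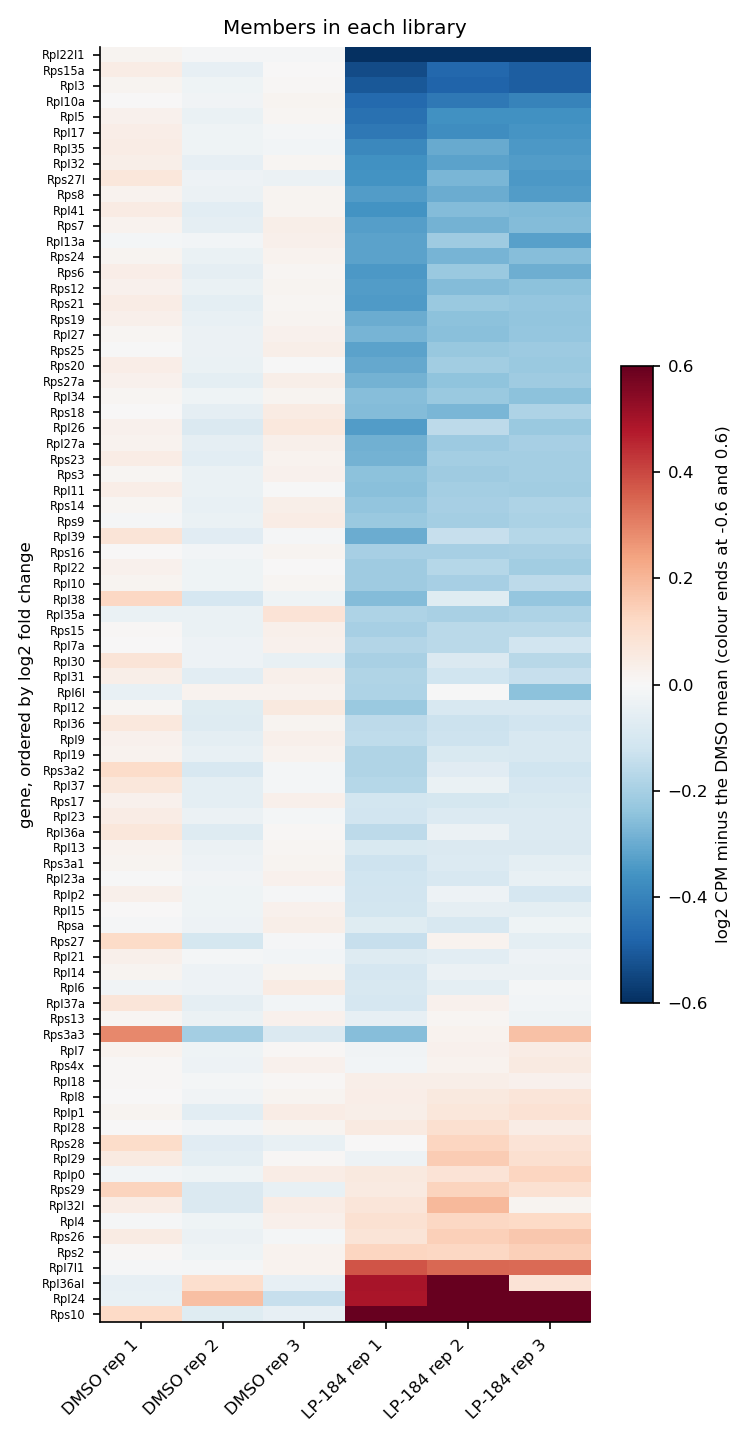
Log2 CPM minus the mean of the 3 DMSO libraries (colour, ending at -0.6 and 0.6) for 82 of the 85 members (y axis, ordered by log2 fold change) in each library (x axis). The 3 LP-184 columns are alike down most of the list, blue for the members called lower, and the noisiest rows are the members with the fewest reads, such as Rps3a3 and Rpl36al.

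Some members moved apart from the group. Each library was shifted so that the members' median log2 CPM was 0, which put the median log2 fold change of all genes tested at 0.13. By the same limma test 24 members were then higher than the member median and 33 lower, beside 45.5% and 32.2% of all genes. This median is the level of 1 gene in each library and so a weak reference: with the stricter filter (log2 CPM of 2 or more) the counts were 45 and 10, and with the pseudogene reads added 39 and 20. With the median deviation of the members as the reference, added once this was seen, they were 26 and 29. Rps2, Rps26 and Rpl4 were among those higher (0.27, 0.26 and 0.25), and Rpl3, Rps15a and Rpl5 among those lower (-0.36, -0.37 and -0.26).

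The members share a short gene. Their median span was 3.23 kb, beside 21.8 kb for tested genes, and 81 of 85 span under 10 kb. Over all genes with a span, the log2 fold change went with span at a Spearman correlation of -0.50 (n = 11462 genes), and among the 78 core and paralog members above a mean log2 CPM of 5 with DMSO at -0.07. These values share libraries, depth and annotation. Other genes spanning under 10 kb had a median log2 fold change of 0.25 (3153 genes), and those also at a mean log2 CPM of 8 or more had 0.06 (201 genes, of which 76 fell and 101 rose). The members' median of -0.14 thus lay below that of short genes, with no test made. The 30 core genes that hold snoRNA genes (58 in all) had a median of -0.15, as did the 47 without one. Of those with snoRNA genes, 26 (86.7%) were called lower and 3 higher, and of those without, 32 (68.1%) lower and 8 higher. This difference was not tested.

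The spread within groups went with mRNA length: over the same 78 members the Spearman correlation of mRNA length with the within-group SD was -0.41, and with the log2 fold change 0.06. The 17 core or paralog mRNAs under 500 nt had a median deviation from their group mean of 0.045 in DMSO replicate 1 and -0.061 in DMSO replicate 2 (log2). Of these 17, 13 fell and 2 rose. The 61 mRNAs of 500 nt or more deviated in the same directions, at 0.016 and -0.034. The part of these deviations in the calls was not tested.

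Ribosomal proteins also lie outside the symbol rule. Fau, fused to a ubiquitin-like protein, was lower at -0.07, which turned to 0.01 after median centring. Rack1, a small subunit scaffold, fell from 2706 ± 62.1 to 2437 ± 47.7 CPM (log2 fold change -0.15). Of 80 mitochondrial ribosomal protein genes, which build the separate ribosome of mitochondria, 35 (43.8%) rose and 27 (33.8%) fell, with a median of 0.02.

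The counts of the lists that follow stand beside 40.0% lower and 38.3% higher, and a median log2 fold change of -0.01, over all genes tested. Of 20 further genes whose mRNAs are known to carry the tract or that go with them, 13 fell and 6 rose, with a median of -0.13. The largest changes were in Vim, the intermediate filament gene (1092 ± 7.15 to 332 ± 1.83 CPM, log2 fold change -1.72), and in the initiation factor subunits Eif3h (-0.76) and Eif3e (-0.72). Of 18 genes of mTORC1 and of TOP mRNA control, 12 (66.7%) fell and 4 (22.2%) rose, with a median of -0.22. Deptor, an inhibitor of mTOR, fell from 17.1 ± 2.13 to 2.31 ± 0.516 CPM, and Rptor, the mTORC1 scaffold, from 44.9 ± 0.722 to 17.8 ± 0.592 CPM. Akt1s1, which encodes the inhibitor PRAS40, rose from 70.4 ± 2.24 to 171 ± 2.26 CPM. Larp1, which binds the tract, was lower at -0.23.

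Of 15 chaperones and importers of ribosomal proteins tested, 6 (40.0%) rose and 5 (33.3%) fell, with a median of 0.01, shares near those of all genes tested. Tsr2, the escort of RPS26, rose from a mean of 37.6 to 79.2 CPM (log2 fold change 1.08), and Aamp, a chaperone of RPL10, was higher at 0.78. Ipo11, an importin, fell by 1.45 on the log2 scale. Of 7 genes listed as enzymes that modify ribosomal proteins, 5 fell and 2 rose. Prmt3, which methylates RPS2, was at -0.82, and Riox1, a hydroxylase of RPL8, at 0.68. The 5 include Setd3 (-0.72), known as a methyltransferase of actin, and N6amt1 (-0.20), known as one of a translation release factor, so the count is not one of ribosomal protein enzymes alone.

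Of 9 genes of the 5S particle and p53 surveillance tested, Rpl5 and Rpl11 included, 5 (55.6%) rose and 3 (33.3%) fell, with a median of 0.16. Cdkn1a, the p53 target p21, went from 11.2 ± 1.23 to 100.1 ± 2.16 CPM (log2 fold change 3.15), Trp53 was higher at 0.78 and Bop1, a 60S assembly factor, at 0.77. Mdm2, the ligase that RPL5 and RPL11 bind, was not called (0.05), and was called higher after median centring, at 0.14. Whether p53 acted in these cells was not tested. Of 16 genes of ribosome quality control, 8 fell and 6 rose, with a median of -0.07, shares near those of all genes tested. The collision sensor Zfp598 rose by 1.45, Ascc3, the helicase that splits collided ribosomes, fell by 2.48, and Map3k20, the stress kinase ZAK, fell by 1.36 on the log2 scale.

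Of 11 transcription factors of ribosomal protein promoters, 4 (36.4%) fell and 3 (27.3%) rose, with a median of -0.02. Gabpb1, the partner of the ETS factor GABPA, fell from 55.9 ± 2.14 to 27.7 ± 1.25 CPM (log2 fold change -1.01), Nfya was higher at 0.80, and Myc rose from 169 ± 4.14 to 241 ± 7.11 CPM (0.51). The named genes of these lists other than Fau kept their direction after median centring, which adds 0.087 to each log2 fold change.

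The authors' deposited table gives 59 members lower and 13 higher at an adjusted p under 0.05. Calls of single members differ in part: Rpl36al is called higher there, and Rpl38, called lower here, is not called there. Its log2 fold changes have the same sign as those computed here for all 85 members, and the largest difference, at Rpl36al, is 0.064.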

How the data were processed

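RNA from 6 libraries of 4T1 cells was compared, 3 with DMSO and 3 with LP-184. The authors deposited log2 CPM for 12656 genes. Tools in the submitters' processing notes are edgeR, featureCounts, Subread 2.0, STAR 2.7 and fastp, listed without roles next to the builds hg38 and mm10. Sources used here do not give the gene annotation, the strand setting or how reads that match several genes were treated. Each control column was matched to the DMSO sample with its number. In the deposited values 0 reads is -3.34 in every library, so the authors added a prior count, which understates the change of low genes. With it removed, 100% of values were whole reads (tolerance 1e-04). The authors' deposited table of log2 fold changes, p-values and adjusted p-values was only set beside the values here.

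Genes that reached log2 CPM 0 in at least 3 libraries (11931) were fitted with limma 3.58.1 in R 4.3.3 (2 groups, two-sided, moderated by empirical Bayes along the mean-variance trend) and adjusted by Benjamini-Hochberg over all of them, at a threshold of 0.05. CPM values are the deposited values taken out of log2, with the value for 0 reads subtracted. Medians and shares are descriptions with no test. Summaries used Python 3.11.15 with pandas 2.3.3 and numpy 2.4.6.

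The members, lists and tests were chosen with earlier results of these data known. The rule names Rplp0, Rplp1, Rplp2, Rpsa, Rps6, Rps27a, Rpl5, Rpl11, Rps26, Rpl3 and the paralog pairs, the 8 largest rises and 8 largest falls with groups apart, the 6 highest and 3 lowest CPM per kb, members whose call changes, and in each list the 3 largest changes; other genes were named after their values were seen.

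Positions, spans, snoRNA genes and mRNA lengths come from GENCODE vM21 (GRCm38, the assembly of mm10), where 95.9% of genes and all 85 members matched by symbol. The length is that of the shortest principal transcript with complete ends, a rule settled after the annotated lengths were seen; it touches the values per kb, the split by length and the shares of an mRNA that lie in another gene. It leaves Rps20 at 3706 nt, so its level per kb is uncertain. Start windows come from RefSeq.

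The fit was checked on simulated data. It recovered 22% of 50 genes changed 1.2-fold, 88% of 50 changed 1.5-fold and 100% of 50 changed 2-fold. Of its calls 4.91% were false, and with no gene changed it made 0 calls in 11676 genes. Smaller changes were not simulated, and far fewer genes were changed than were called here, so the check does not cover the small changes of most members. Whether the spread in the simulated data matched that of the members was not tested. The members' median within-group SD (log2) was 0.052 for the 17 mRNAs under 500 nt and 0.034 for the 61 of 500 nt or more. The 22% at 1.2-fold is therefore not a recovery rate for the members. Alternatives were median centring, quantile normalization, 2 pseudocounts (1 and 0.1), no filter, a stricter filter, no variance trend, a robust fit, each library left out, the replicate block, limma's voom on recovered reads, a threshold of 0.01, and, chosen after the data were seen, scaling by total reads, pseudogene reads added to the parent gene, and the median deviation of the members as reference. Some single genes are not reported here and are left out of the plots by gene; the counts cover all members.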

Additional observations from a re-analysis of the deposited data

How the results depend on the processing

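Of the 85 members, 44 kept their direction and their side of the threshold under all 19 alternatives that tested them (39 lower, 4 higher and 1 not called), and 68 never changed sign. Under the other settings not given here the counts stayed within 1.5 times those reported. With median centring 19 members were higher and the median was -0.057; with quantile normalization 20 were higher and the median was -0.10; without the variance trend 6 were higher. Relative to the member median, 45 were higher and 10 lower with the stricter filter, and 39 and 20 with pseudogene reads added; a changed reference gene is part of these settings. Leaving out 1 library gave 9 to 14 higher, 55 to 62 lower, 21 to 25 above and 29 to 34 below the member median, a median of -0.17 to -0.12, and a lower share of reads with LP-184 each time (difference -0.59 to -0.45 percentage points).

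Log2 fold changes that changed sign were, among the genes reported here, with median centring, Rpl14 0.030, Rpl15 0.012, Rpl21 0.030, Rpl23a 0.0013, Rpl37a 0.055, Rpl6 0.032, Rplp2 0.0048, Rps13 0.065, Rps27 0.027, Rps3a3 0.066, Rpsa 0.022; with quantile normalization, Rpl13 0.069, Rpl14 0.039, Rpl37a 0.046, Rpl6 0.063, Rpl6l 0.047, Rpl7a 0.043, Rps13 0.071, Rps3a1 0.014, Rps3a3 0.17; with total read scaling, Rpl37a 0.0010, Rps13 0.011, Rps3a3 0.010; with voom, Rpl37a 0.0010, Rps13 0.012, Rps3a3 0.0073; without DMSO replicate 1, Rpl37a 0.0040, Rps3a3 0.12; without LP-184 replicate 1, Rpl37a 0.0033, Rps3a3 0.097; and with pseudogene reads added, Rps10 -0.076. Leaving out 1 library at a time gave Rpl37a -0.060 to 0.0040 and Rps3a3 -0.12 to 0.12. The cause was not tested, except that a scaling adds 1 value to all genes of a library under median centring and total read scaling.

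With the replicate block, 12 members were higher and 61 lower, with 0 members changing their call. The labels do not say whether same-numbered libraries were paired. Their deviations correlated at -0.010, -0.018 and -0.0065 over all genes, and at -0.26, 0.27 and 0.16 over the members. Libraries with different numbers gave -0.42 to 0.26 over the members. These values cannot settle whether the libraries were paired. Depth limits Rps10, Rpl24, Rpl36al, Rpl32l and Rps3a3, which had 24 to 113 reads per library.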
